A study of Mus musculus with 24 samples.

Results

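Mesothelial marker genes were followed in 2 mouse epithelial cell lines and in macrophages, as 10 genes of the 19938 that the arrays measured: Msln, Upk3b, Upk1b, Lrrn4, Wt1, Gpm6a, Bnc1, Gata6, Muc16 and Calb2. A probe set belonged to the group when its platform gene symbol was that of a member. Each of the 10 genes had 1 such probe set, so no choice among probe sets was needed. The genes were chosen by their measured levels in the epithelial lines of these same arrays, so their levels against macrophages are given as a description, with no test. The rule names no effect of treatment and no difference between the lines, and those were tested, but the genes were put forward with earlier results of these data known.

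The study compared 24 arrays in 6 groups of 4. Of the epithelial lines, both made from upper reproductive tract, C57epi.1 has the C57BL/6 strain as its source. The source of Bm12.4 is the strain B6(C)-H2-Ab1bm12/KhEgJ, in which an MHC class II gene is mutated. The third kind of cell was C57BL/6 femur bone marrow grown into macrophages with GM-CSF. Every kind was left in RPMI media or given an inflammatory supernatant at 33% (v/v). A CD4 T cell clone specific for Chlamydia, cultured with infected epithelial cells, conditioned this medium, which was brought to 4 ng/ml interferon-gamma, so T cell products, products of infected cells and added interferon arrived together. Each line stands for its strain alone, so strain and line cannot be told apart. Nothing in the labels shows whether the replicates are independent cultures, and p-values here speak of the variation among these arrays, which may be partly technical.

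Mesothelium is the flat epithelium that lines the body cavities and covers the organs within them, the ovary, oviduct and uterus among them. It arises from the coelomic epithelium of the embryo, and it keeps a mixed character, with keratins of simple epithelia beside adhesion and matrix genes of mesenchyme. Its surface carries mesothelin (Msln), a lipid-anchored glycoprotein that binds the mucin Muc16, and the membrane proteins Upk3b, Upk1b, Lrrn4 and Gpm6a. The zinc finger factors Wt1, Bnc1 and Gata6 act in the nucleus, and Wt1 is needed for the development of mesothelium, kidney and gonad. Calb2 encodes calretinin, a calcium-binding protein that pathologists use to recognise human mesothelioma.

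Promoter sequence was at hand for 5 of the 10 genes in RefSeq tables of the mouse build GRCm38.p6, and is shown for the 4 of these whose level differed between the lines. Lrrn4, Upk3b and Bnc1 were higher in Bm12.4 and Gpm6a was higher in C57epi.1. Each window runs from 250 bases before a transcription start to 50 after it, 5′ to 3′ on the gene's strand. Lrrn4 is read from chr2:132880813-132881112 on the minus strand, Upk3b from chr5:136038246-136038545 on the plus strand and Bnc1 from chr7:81992250-81992549 on the minus strand. Gpm6a has 2 starts in the table, at chr8:54779184-54779483 and chr8:54954478-54954777, both on the plus strand. Capitals mark the matches to any of 4 motifs, searched on both strands.
Lrrn4: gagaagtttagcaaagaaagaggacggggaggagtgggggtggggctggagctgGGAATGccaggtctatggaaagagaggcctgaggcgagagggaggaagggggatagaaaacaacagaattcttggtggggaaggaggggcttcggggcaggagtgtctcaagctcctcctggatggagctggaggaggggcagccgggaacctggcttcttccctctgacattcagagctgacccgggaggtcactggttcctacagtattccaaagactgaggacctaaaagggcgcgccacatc
Upk3b: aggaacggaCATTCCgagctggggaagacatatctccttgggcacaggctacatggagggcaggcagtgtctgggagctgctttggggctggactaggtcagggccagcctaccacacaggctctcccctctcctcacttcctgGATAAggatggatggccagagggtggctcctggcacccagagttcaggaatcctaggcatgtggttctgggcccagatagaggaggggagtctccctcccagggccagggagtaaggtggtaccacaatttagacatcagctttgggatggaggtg
Bnc1: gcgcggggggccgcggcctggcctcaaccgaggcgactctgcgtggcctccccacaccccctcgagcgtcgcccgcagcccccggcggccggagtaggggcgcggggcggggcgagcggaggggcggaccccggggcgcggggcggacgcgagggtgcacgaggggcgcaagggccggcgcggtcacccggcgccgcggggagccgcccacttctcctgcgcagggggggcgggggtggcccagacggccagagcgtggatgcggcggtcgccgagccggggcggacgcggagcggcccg
Gpm6a, upstream start: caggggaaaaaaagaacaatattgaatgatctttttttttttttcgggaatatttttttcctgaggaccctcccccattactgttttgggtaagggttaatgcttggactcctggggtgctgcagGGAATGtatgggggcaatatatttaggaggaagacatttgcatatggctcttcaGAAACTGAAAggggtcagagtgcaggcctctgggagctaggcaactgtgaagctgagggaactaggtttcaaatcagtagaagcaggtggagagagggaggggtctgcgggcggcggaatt
Gpm6a, downstream start: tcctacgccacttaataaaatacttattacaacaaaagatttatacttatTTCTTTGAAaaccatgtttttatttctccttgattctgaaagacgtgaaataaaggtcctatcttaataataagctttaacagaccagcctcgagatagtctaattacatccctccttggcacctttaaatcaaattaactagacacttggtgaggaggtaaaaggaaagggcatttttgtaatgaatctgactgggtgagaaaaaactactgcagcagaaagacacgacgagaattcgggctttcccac
The motifs were GATAA, the core bound by GATA factors, GGAATG, bound by TEAD factors, TTCNNNGAA, the interferon-gamma activated site bound by STAT dimers, and an interferon-stimulated response element core, GAAA followed after any 2 bases by GAAA again. Of 32851 promoter windows of the same length, 25.4% held GATAA, 14.7% held GGAATG, 8.3% held TTCNNNGAA and 3.44% held the response element core. The Lrrn4 window held GGAATG at position −196 from the start. The Upk3b window held GATAA at −106 and, on the other strand, GGAATG at −241. The upstream Gpm6a window held GGAATG at −125 and the response element core at −71, and the downstream window held TTCNNNGAA at −200. No 2 of these matches overlapped. The Bnc1 window held none of the 4 motifs in these letters, and 83.3% of its bases were G or C, against a median of 52.7% over all windows. A match describes the letters of a window and was not tested as a binding site.

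Values are log2 levels as the authors deposited them, and a difference of 1 is a 2-fold change. A level is comparable between groups for the same gene, not between genes. The arrays were alike in scale, with medians from 5 to 5.19, and arrays of a group correlated at 0.967 to 0.9975 across genes. The supernatant acted on all 3 kinds of cell: of 11 measured interferon-gamma response genes, 11 rose in each line (median differences 5.09 in C57epi.1 and 4.32 in Bm12.4) and 10 rose in macrophages (3.04). In the media groups of both lines, replicates 1 and 2 stood apart from replicates 3 and 4. The median level of 11 cell cycle genes was 10.45 and 10.43 in C57epi.1 media replicates 1 and 2 against 9.54 and 9.48 in replicates 3 and 4, and 10.1 and 9.99 against 7.32 and 7.6 in Bm12.4 media. In supernatant it lay between 9.71 and 9.94 in C57epi.1 and between 8.9 and 9.82 in Bm12.4. Results that rest on this split are given with and without it, and the part of cell growth in them was not tested.

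In media, 8 of the 10 mesothelial genes were at least 1 log2 unit above macrophages in both lines: Msln, Upk3b, Upk1b, Lrrn4, Wt1, Gpm6a, Bnc1 and Gata6. Of all genes, 6.71% met that rule. Muc16 and Calb2 stayed at the macrophage level in every group. The median difference from macrophages over the 10 genes was 3.96 in C57epi.1 and 4.20 in Bm12.4, against −0.00 and 0.01 over all genes. These arrays measured cultures in bulk, so fewer cells of a type and less RNA per cell cannot be told apart.

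**Figure D1:**
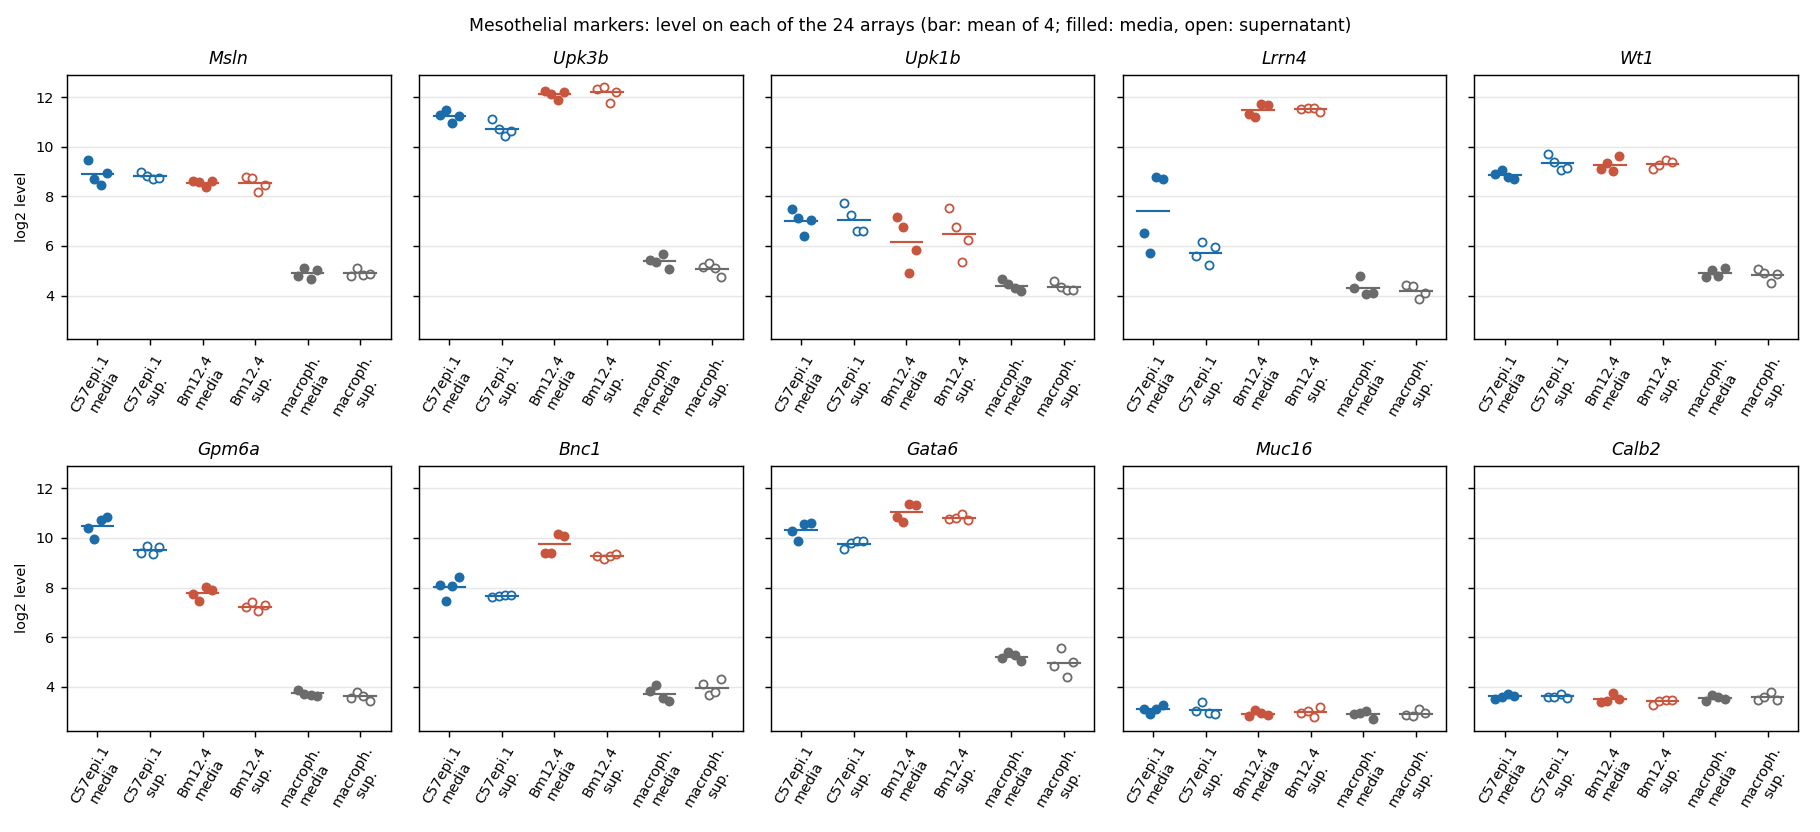
Level of each of the 10 mesothelial genes on the 24 arrays (vertical axis, log2 level), by group along the horizontal axis; circles are arrays, filled in media and open in supernatant, and bars are means of 4. Muc16 and Calb2 lie between 2.72 and 3.79 everywhere, and the other 8 genes lie higher on every line array than on any macrophage array.

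Mesothelin (Msln) was measured at 9.47, 8.71, 8.44 and 8.94 in C57epi.1 media and at 8.61, 8.59, 8.39 and 8.62 in Bm12.4 media. In supernatant it was 8.98, 8.82, 8.71 and 8.75 in C57epi.1 and 8.76, 8.74, 8.16 and 8.45 in Bm12.4. All 8 macrophage arrays lay between 4.65 and 5.11. The lines overlapped each other and never reached the macrophage range, with C57epi.1 higher than macrophages in media by 3.99 and Bm12.4 by 3.65 on the log2 scale. Its known binding partner Muc16 gave another picture. The mean level of Muc16 was 3.10 ± 0.15 (SD, n = 4) in C57epi.1 media, 2.92 ± 0.11 in Bm12.4 media and 2.90 ± 0.13 in macrophage media. The Muc16 probe set rests on 1 transcript accession of a very large gene, and no detection call was used here, so its level cannot be told from background.

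Upk3b, a uroplakin of mesothelium and urothelium, lay far above macrophages in both lines, with a small spread. It measured 11.26, 11.47, 10.97 and 11.24 in C57epi.1 media and 12.23, 12.13, 11.89 and 12.21 in Bm12.4 media, against 5.07 to 5.66 in macrophage media. The differences were 5.85 and 6.73 on the log2 scale. Upk1b, a tetraspanin that pairs with uroplakins of this kind, was at 7.01 ± 0.46 (SD, n = 4) in C57epi.1 media, 6.17 ± 1.01 in Bm12.4 media and 4.40 ± 0.22 in macrophage media. The bladder uroplakins Upk1a, Upk2 and Upk3a did not follow: their media means were 5.04, 5.03 and 4.84 in C57epi.1 and 5.38, 5.03 and 4.91 in Bm12.4, beside 5.15, 5.10 and 4.83 in macrophages. Of 14 urothelial markers, 1 (Elf3, an epithelial ETS factor, 5.71 and 5.75 against 4.46) was at least 1 unit above macrophages in both lines.

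Lrrn4, a leucine-rich repeat membrane protein, separated the lines. In media it was 11.3, 11.18, 11.73 and 11.69 in Bm12.4 but 6.51, 5.71, 8.79 and 8.68 in C57epi.1, with macrophages between 4.06 and 4.81. Gpm6a, a membrane glycoprotein known from neurons, showed the opposite order. It was 10.4, 9.96, 10.74 and 10.84 in C57epi.1 media, 7.74, 7.48, 8.02 and 7.89 in Bm12.4 media and 3.65 to 3.88 in macrophage media. For both genes the 3 kinds of cell did not overlap.

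All 3 nuclear factors were well above macrophages in both lines. Wt1 was at 8.85 ± 0.16 (SD, n = 4) in C57epi.1 media and 9.27 ± 0.27 in Bm12.4 media, against 4.92 ± 0.17 in macrophages. Bnc1, basonuclin 1, was at 8.02 ± 0.41, 9.76 ± 0.41 and 3.73 ± 0.28 in the same order. Gata6, a GATA factor of mesoderm and endoderm, was at 10.34 ± 0.34, 11.05 ± 0.35 and 5.22 ± 0.16. Calb2 was at 3.62 ± 0.08, 3.52 ± 0.16 and 3.56 ± 0.11, within the spread of the arrays.

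The order of the line groups differed from gene to gene. For Lrrn4, Upk3b, Bnc1 and Gata6 both Bm12.4 groups had higher means than both C57epi.1 groups, and for Gpm6a both C57epi.1 groups had higher means. The 2 Bm12.4 groups of Lrrn4, at 11.48 ± 0.28 and 11.50 ± 0.08, and those of Upk3b, at 12.12 ± 0.16 and 12.18 ± 0.29, did not differ beyond their spread. The means of the 4 line groups spanned 5.77 log2 units for Lrrn4 and 3.25 for Gpm6a, but 0.36 for Msln, 0.48 for Wt1 and 0.88 for Upk1b.

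A wider list of 32 genes of mesothelium and coelomic epithelium, of which all but C3 were measured, was mixed. In media, 10 of 31 were at least 1 unit above macrophages in both lines, 6 in C57epi.1 alone and 3 in Bm12.4 alone. Of all 19938 genes, 1338, 743 and 636 met these rules in turn, 14784 lay within 1 unit in both lines and 2437 were lower. Another 9 of the 31 lay within 1 unit in both lines and 3 were lower. Of these 3, thrombomodulin (Thbd, −1.89 and −1.89) and Dpp4 (−1.16 and −1.12) were lower in both lines. Aldh1a2 was lower in C57epi.1 (−2.95) and not in Bm12.4 (0.71). Those high in both lines included the keratin Krt19 (C57epi.1 11.32, Bm12.4 11.76 and macrophages 4.32), the annexin Anxa8 (10.73, 11.28 and 4.42), the neural cadherin Cdh2 (9.18, 9.62 and 5.10) and the GATA factor Gata4 (7.74, 8.18 and 5.47). Itln1, which encodes omentin, made by mesothelium, was at 3.37, 3.42 and 3.35. Macrophages express some of the list themselves: the membrane protein Pdpn averaged 10.43 over their 8 arrays and 10.76 over the 16 line arrays.

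**Figure D2:**
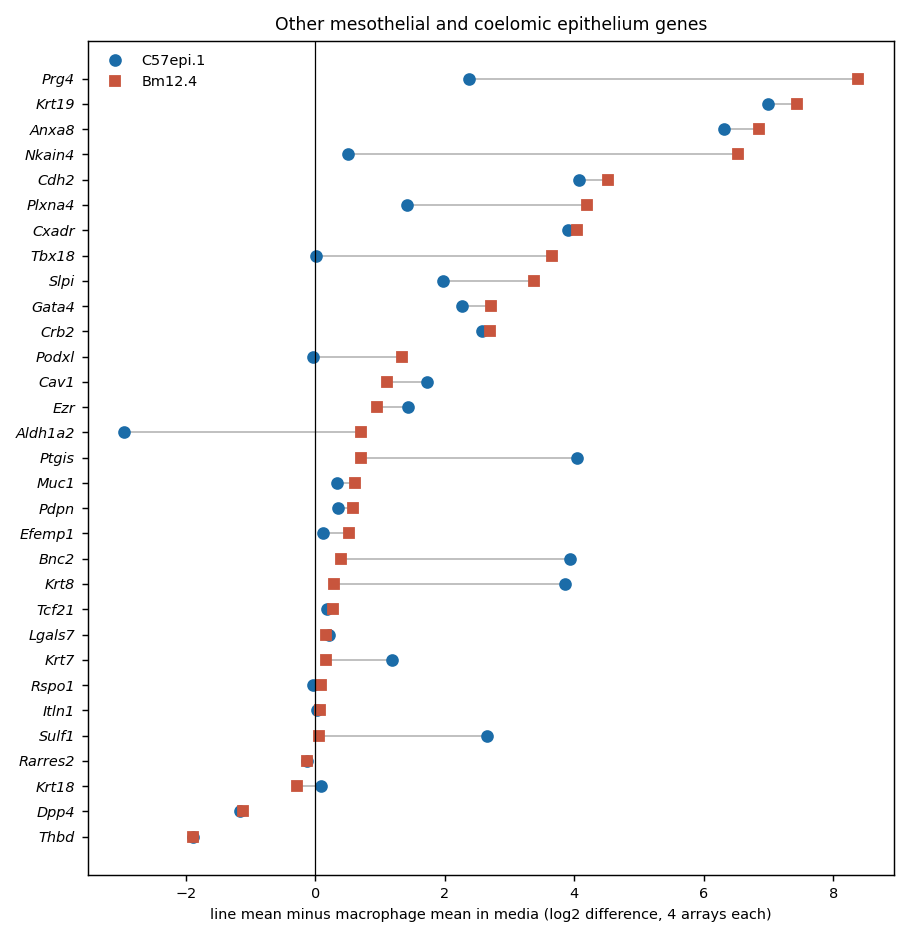
Difference of each line's mean from the macrophage mean in media (horizontal axis, log2 units, 4 arrays per mean) for the 31 measured genes of mesothelium and coelomic epithelium that are not among the 10; circles are C57epi.1 and squares Bm12.4, joined by a line for each gene. Krt19 and Anxa8 lie to the right in both lines, while Prg4 (2.38 and 8.38), Nkain4 (0.50 and 6.53), Krt8 (3.86 and 0.29) and Bnc2 (3.94 and 0.39) part the lines.

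The labelled tissue was checked against its own markers. Of 19 measured markers of reproductive tract epithelium, 2 (10.5%, beside 6.71% of all genes) were at least 1 unit above macrophages in both lines, Lif and Emx2. In C57epi.1 alone, Foxa2, a factor of uterine glands, was at 7.62 against 5.20 and the epithelial factor Klf5 at 6.08 against 4.90. Of the 19, 14 were within 1 unit of macrophages in both lines, as were 14784 of all 19938 genes. The remaining gene, the cadherin Cdh1, was lower in both lines. It was at 4.34 in C57epi.1 media and 4.5 in Bm12.4 media, against 6.65 in macrophage media. Epcam, the adhesion protein of most simple epithelia, was at 3.74 in C57epi.1 media, 3.70 in Bm12.4 media and 3.71 in macrophage media. Pax8, a factor of oviduct and uterine epithelium, was at 4.83, 4.85 and 4.75. The mean level over these 19 genes lay between 4.66 and 4.93 on all 16 line arrays and between 4.49 and 4.73 on the macrophage arrays. Of 20 stromal genes, 10 (50%) met the same rule in both lines, 2 in C57epi.1 alone and 1 in Bm12.4 alone. Another 6 were within 1 unit of macrophages in both lines. Of all 19938 genes, 743 met the rule in C57epi.1 alone and 636 in Bm12.4 alone, and 14784 were within 1 unit. Fn1 was above macrophages by 1 unit in neither line and lower in Bm12.4, at 13.07 and 11.20 against 13.19. The collagen gene Col1a1 was at 12.49 and 12.98 against 7.16. Col1a2, which encodes its partner chain, was at 12.43 in C57epi.1 media but at 6.01 in Bm12.4 media, below the 7.71 of macrophages, and the smooth muscle actin Acta2 was at 9.60, 5.37 and 7.28. The mean over the 20 stromal genes lay between 7.42 and 8.36 on the line arrays and between 5.28 and 5.72 on the macrophage arrays. The part of stromal cells in the mesothelial levels was not tested. Macrophage and leukocyte markers averaged 4.20 to 4.55 on the line arrays and 10.64 to 10.94 on the macrophage arrays, with the leukocyte gene Ptprc at 3.97 and 4.18 and the macrophage receptor Csf1r at 4.49 and 4.68 in the lines in media.

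The next comparison asked how an inflammatory milieu modelled on a Chlamydia genital infection moves these genes. In C57epi.1, 5 of the 10 were called. Lrrn4, Gpm6a, Upk3b and Gata6 fell, and Wt1 rose. Of these, only Gpm6a kept its call in all 17 alternative settings. The call was lost in 8 for Upk3b, 8 for Gata6, 6 for Wt1 and 3 for Lrrn4. Over all genes, 19.2% were called in this comparison (limma, Benjamini-Hochberg adjusted p under 0.05). The median difference over the 10 was −0.21, beside −0.05 over all genes.

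Gpm6a, with the smallest adjusted p of the 5, was 9.4, 9.68, 9.35 and 9.64 in C57epi.1 supernatant and 10.4, 9.96, 10.74 and 10.84 in media. All 4 treated arrays lay below all 4 media arrays. The difference was −0.97 (SE 0.151, adjusted p = 6.16e-05), a 1.96-fold fall, and it kept its call within replicates 1 and 2 (−0.64) and within replicates 3 and 4 (−1.29), with adjusted p from 1.69e-06 to 0.00783 over 17 alternative settings.

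Lrrn4 was 5.61, 6.14, 5.23 and 5.94 in C57epi.1 supernatant, and 6.51, 5.71, 8.79 and 8.68 in media. The fall of 1.69 had an adjusted p of 0.00869 (difference −1.69, SE 0.446), but the media arrays were far apart. Replicates 3 and 4 in media were at 8.73 on average and replicates 1 and 2 at 6.11, where 5.71 lay inside the treated range. Within replicates 3 and 4 the difference was −3.15, and within replicates 1 and 2 it was −0.24 (adjusted p = 0.626). Without media replicate 4 it was −1.27, with an adjusted p that rounds to 0.05 and was not under it. Over its 17 alternatives the adjusted p of Lrrn4 ran from 3.63e-09 to 0.626.

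Wt1, a factor of mesothelial development, moved the other way. It was 9.72, 9.4, 9.08 and 9.13 in C57epi.1 supernatant and 8.88, 9.06, 8.76 and 8.71 in media, and all 4 treated arrays lay above all 4 media arrays. The rise was 0.48 (SE 0.152, adjusted p = 0.0287), or 1.39-fold. The call was lost without supernatant replicate 1 (adjusted p = 0.131) or 2 (0.0729), without media replicate 3 (0.0807) or 4 (0.0921), and within replicates 3 and 4 (0.37, adjusted p = 0.141), with a range of 0.00817 to 0.141 over 17 alternatives.

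Upk3b and Gata6 fell by less. Upk3b was 11.11, 10.7, 10.43 and 10.62 in C57epi.1 supernatant, of which 3 arrays lay below the lowest media array (difference −0.52, SE 0.161, adjusted p = 0.025). Gata6 was 9.55, 9.79, 9.86 and 9.89 in supernatant against 10.3, 9.87, 10.58 and 10.61 in media, again with 3 arrays below the media range (−0.57, SE 0.197, adjusted p = 0.0463). The direction of both held in all 17 alternatives and the call did not. Upk3b lost its call without supernatant replicate 2 (adjusted p = 0.0555), 3 (0.102) or 4 (0.0657) or media replicate 2 (0.0754) or 4 (0.0554), and within replicates 1 and 2 (−0.46, 0.132), with a range of 0.00297 to 0.132. Gata6 lost its call without any of 7 arrays, media replicate 2 being the exception, with adjusted p from 0.0605 to 0.157 in those 7 fits. Its full range was 0.00962 to 0.211, and its difference within replicates 1 and 2 was −0.42. Fitted from the C57epi.1 groups alone, with their own spread, Lrrn4 (0.118), Upk3b (0.0522) and Wt1 (0.0591) missed the threshold, as did Upk3b with centred arrays (0.0654).

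Bnc1 was 7.61, 7.66, 7.69 and 7.71 in C57epi.1 supernatant and 8.12, 7.45, 8.08 and 8.42 in media (difference −0.35, adjusted p = 0.249). Without media replicate 2, the lowest of its group, the difference was −0.54 and passed (adjusted p = 0.0376, range 0.0361 to 0.727 over 17 alternatives). Msln (−0.07, SE 0.165), Upk1b (0.04, SE 0.415), Muc16 (−0.04, SE 0.112) and Calb2 (0.00, SE 0.0888) were not called.

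**Figure D3:**
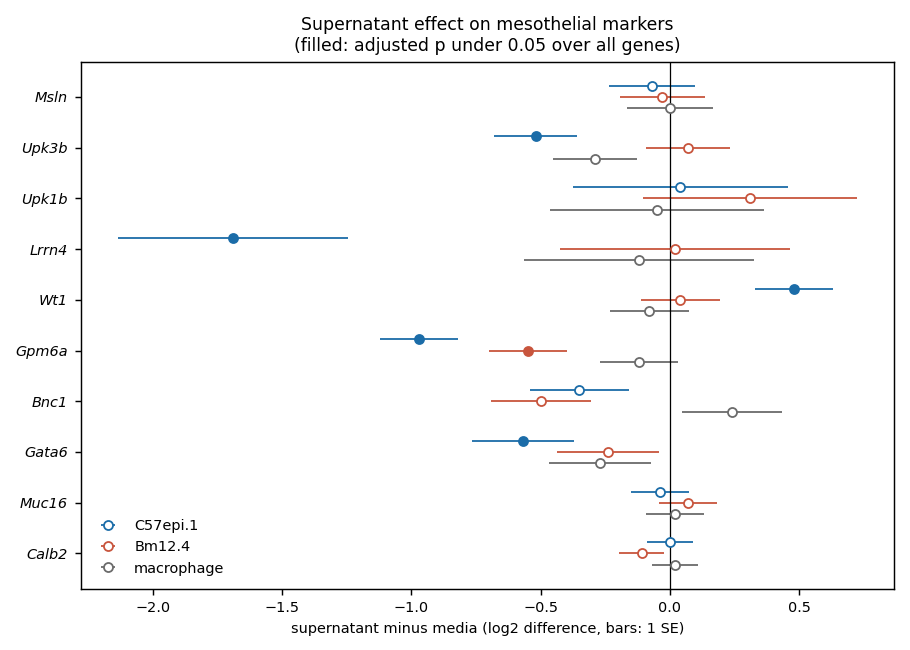
Supernatant minus media for the 10 mesothelial genes (horizontal axis, log2 difference from limma; bars, 1 SE) by kind of cell, blue for C57epi.1, red for Bm12.4 and grey for macrophages; filled symbols have an adjusted p under 0.05 over all genes. Filled symbols stand at Upk3b, Lrrn4, Wt1, Gpm6a and Gata6 for C57epi.1 and at Gpm6a for Bm12.4.

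In Bm12.4, 1 of the 10 genes was called, Gpm6a, where 7.25% of all genes were. Gpm6a was 7.22, 7.41, 7.04 and 7.28 in supernatant against 7.74, 7.48, 8.02 and 7.89 in media, with all 4 treated arrays below the media arrays (−0.55, SE 0.151, adjusted p = 0.0273). With the replicate number as a block, which the Bm12.4 arrays bear out as a pairing, the adjusted p was 0.0567. The call was also lost without supernatant replicate 1 (0.0591), 3 (0.0978) or 4 (0.0518) or media replicate 3 (0.0986) or 4 (0.072), and within replicates 1 and 2 (−0.29, adjusted p = 0.288) and with these groups fitted alone (0.0637), with a range of 0.00144 to 0.288.

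Bnc1 in Bm12.4 was 9.28, 9.17, 9.26 and 9.34 in supernatant and 9.41, 9.4, 10.15 and 10.07 in media. The groups did not overlap, yet the difference of −0.50 was not called (SE 0.193, adjusted p = 0.146). It was −0.81 within replicates 3 and 4 (adjusted p = 0.00586) and −0.18 within replicates 1 and 2, a span of 0.00586 to 0.666 in adjusted p over 17 alternatives. Lrrn4 was 11.5, 11.55, 11.56 and 11.38 in Bm12.4 supernatant, a difference of 0.02 (SE 0.446). Wt1 differed by 0.04 (SE 0.152), Upk3b by 0.07 (SE 0.161) and Gata6 by −0.24 (SE 0.197), and none of them was called.

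Macrophages gave no call among the 10 genes (limma; 0 also at an unadjusted p under 0.05), where 6.13% of all genes rose and 6.31% fell. Their differences ran from −0.29 for Upk3b to 0.24 for Bnc1. The macrophage means in media lay between 2.90 for Muc16 and 5.38 for Upk3b, beside array medians of 5 to 5.19.

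The test of whether the 2 lines responded differently called none of the 10 at an adjusted p under 0.05, beside 4.03% of all genes. At an unadjusted p under 0.05 there were 2, Lrrn4 (difference of effects −1.72, SE 0.631, adjusted p = 0.147) and Upk3b (−0.59, SE 0.228, adjusted p = 0.176). In this fit, the effect on Lrrn4 in C57epi.1 is thus not shown to differ from that in Bm12.4. Blocks within a kind of cell gave 1 call each: Upk3b with the replicate number as a block (adjusted p = 0.0371) and Lrrn4 with the replicate set as a block (0.0378). The replicate sets, 1 and 2 or 3 and 4, follow the split, which was defined after it was seen. Without C57epi.1 media replicate 2, the difference for Lrrn4 was −2.29 and was called (adjusted p = 0.00727), and within replicates 3 and 4 it was −2.91, while within replicates 1 and 2 it was −0.52, with adjusted p from 1.29e-05 to 0.491 over 25 alternatives.

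Other mesothelial and coelomic genes changed in C57epi.1 in both directions. Of 31, 7 rose and 5 fell, or 38.7%, beside the 19.2% of all genes. Those with the largest rises were Cxadr, a tight junction adhesion receptor (0.78), Sulf1, a heparan sulfatase (0.75), and the mucin Muc1 (0.66). Those with the largest falls were Prg4, the joint and cavity lubricant lubricin (−1.58), Bnc2, basonuclin 2 (−0.80), and the keratin Krt7 (−0.69). Within replicates 1 and 2 alone the count was 7 up and 1 down: there Prg4 was at 0.22, and Sulf1 (0.44, adjusted p = 0.0694), Bnc2 (−0.33, 0.277) and Krt7 (−0.22, 0.489) were not called. Within replicates 3 and 4 the count was 3 up and 5 down, and Muc1 was not called (0.32, 0.236). Prg4 was also not called without any of 6 arrays, media replicates 3 (−1.06, adjusted p = 0.222) and 4 (−0.96, adjusted p = 0.243) and all 4 supernatant replicates, against an adjusted p of 0.0488 with all arrays. It also missed the threshold with centred arrays (0.0519), with a trended and robust fit (0.0588) and with the C57epi.1 groups fitted alone (0.255), as Krt7 did in that last fit (0.0572). Leaving out supernatant replicate 1 or 3 or media replicate 3 or 4 brought the total called to 8 each. In Bm12.4, Cxadr rose (0.70, adjusted p = 0.0116) and no other gene of the 31 was called. Cxadr in Bm12.4 lost its call without supernatant replicate 1 (adjusted p = 0.0543) or media replicate 3 (0.0517), and with the 2 Bm12.4 groups fitted alone (0.122).

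In macrophages 3 of the 31 (9.68%) were called, where 6.13% of all genes rose and 6.31% fell: the peptidase Dpp4 (0.82) and Pdpn (0.48) up and thrombomodulin, Thbd (−0.82), down. Of 20 stromal genes, 1 rose and 6 fell in C57epi.1 (35%, beside 19.2% of all genes), among them the growth factor receptor Pdgfra (−2.18) and the factor Snai1 (−1.71), and none was called in Bm12.4, beside 7.25% of all genes (limma, adjusted p under 0.05; 8 at an unadjusted p under 0.05). Pdgfra also differed between the responses of the lines (−2.64, adjusted p = 0.00469). Their part in the falls of Gpm6a and Lrrn4 was not tested. Of the 31 genes, Sulf1 (0.98, adjusted p = 0.00984) and Pdpn (0.54, adjusted p = 0.011) differed between the responses of the lines, and neither did within replicates 1 and 2 (0.248 and 0.175).

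The comparison of the lines themselves gave the largest tested differences among the 10 genes. In media 6 of the 10 genes were called, 5 lower and 1 higher in C57epi.1 than in Bm12.4, where 24.4% of all genes were called. In supernatant 5 were called, 4 lower and 1 higher, where 29.9% of all genes were called. Both comparisons share their arrays with the tests of treatment above.

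Lrrn4 was 16.6-fold lower in C57epi.1 in media (difference −4.05, SE 0.446, adjusted p = 2.04e-07) and 54.5-fold lower in supernatant (−5.77, adjusted p = 5.63e-10). The lines did not overlap in either condition, and the size in media moved with the replicates, from −5.13 in replicates 1 and 2 to −2.98 in replicates 3 and 4. Gpm6a was 6.51-fold higher in C57epi.1 in media (2.70, SE 0.151, adjusted p = 2.12e-12) and 4.86-fold higher in supernatant (2.28, adjusted p = 3.91e-11). The lowest C57epi.1 array of Gpm6a in media was 9.96 and the highest Bm12.4 array 8.02.

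Among the factors, Bnc1 was 3.34-fold lower in C57epi.1 in media (−1.74, adjusted p = 2.22e-07) and 3.02-fold lower in supernatant (−1.59, adjusted p = 6.58e-07). Gata6 was 10.84, 10.66, 11.37 and 11.32 in Bm12.4 media, each above every C57epi.1 array. It differed by −0.71 in media (adjusted p = 0.00932, and 0.0655 with these groups fitted alone, the highest of a range from 0.00343) and by −1.04 in supernatant (adjusted p = 0.000217). Wt1 was 9.11, 9.33, 9.02 and 9.62 in Bm12.4 media, and 3 C57epi.1 arrays lay below that range. It differed by −0.42 in media (adjusted p = 0.04955), and in supernatant the means were 9.33 and 9.31 (difference 0.03, SE 0.152). The Wt1 call in media was lost without replicate 1 (0.0786), 3 (0.113) or 4 (0.129) of C57epi.1, without replicate 2 (0.0938) or 4 (0.199) of Bm12.4, with arrays centred on their medians (0.0906), with a trended robust variance (0.0543), with these groups alone (0.107) and within replicates 1 and 2 (0.417), with a range of 0.0151 to 0.417 over 17 alternatives.

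Upk3b in supernatant was 12.32, 12.42, 11.77 and 12.22 in Bm12.4, against 10.43 to 11.11 in C57epi.1. It was lower in C57epi.1 in both conditions, with differences of −0.88 in media (1.84-fold, adjusted p = 0.000193) and −1.47 in supernatant (2.77-fold, adjusted p = 1.62e-07). All 4 C57epi.1 arrays lay below all 4 Bm12.4 arrays each time. Msln differed by 0.34 in media (SE 0.165, adjusted p = 0.164) and by 0.29 in supernatant (SE 0.165, adjusted p = 0.233), and neither was called. Without C57epi.1 media replicate 3 the media difference of Msln was 0.49 and was called (adjusted p = 0.0314, range 0.0314 to 0.592).

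Upk1b in media was 7.49, 7.11, 6.39 and 7.04 in C57epi.1 and 7.18, 6.76, 4.92 and 5.82 in Bm12.4, and in each line replicates 3 and 4 had the lower mean. The difference of 0.84 was not called (SE 0.415, adjusted p = 0.169). With the replicate number as a block, its SE was 0.247 and its adjusted p 0.0145. The media arrays bear out that pairing only in part, since C57epi.1 replicates 2 and 3 correlated best with another number of Bm12.4. The Upk1b difference in media was 1.34 within replicates 3 and 4 (adjusted p = 0.00178) and 0.33 within replicates 1 and 2. Without Bm12.4 media replicate 1 it was 1.17 and was called (adjusted p = 0.0406, range 0.00178 to 0.575 over 17 alternatives). In supernatant it was 0.56 (adjusted p = 0.384). Muc16 (0.18 and 0.08) and Calb2 (0.10 and 0.20) were not called in either condition, and the supernatant arrays of Calb2 did not overlap (adjusted p = 0.0974).

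**Figure D4:**
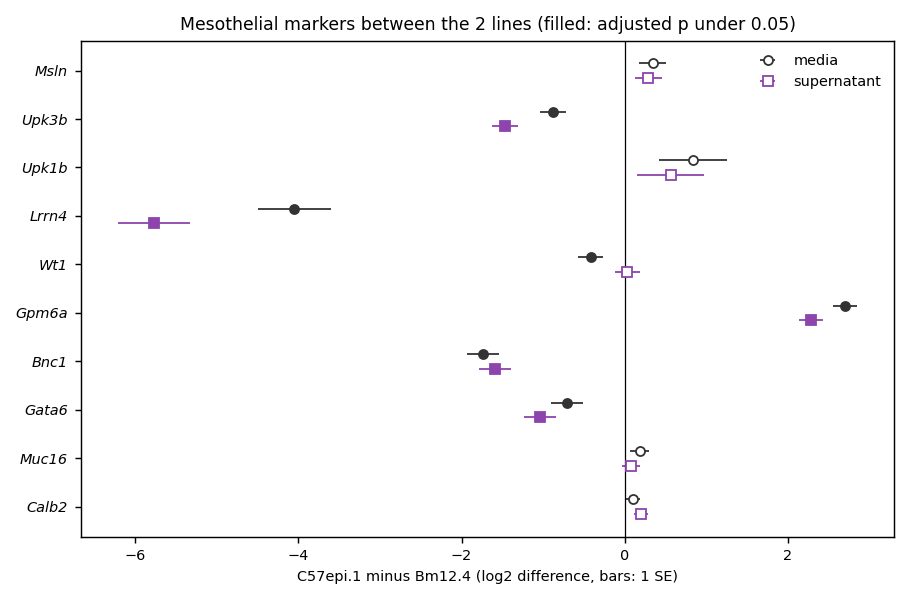
C57epi.1 minus Bm12.4 for the 10 mesothelial genes (horizontal axis, log2 difference from limma; bars, 1 SE), circles in media and squares in supernatant; filled symbols have an adjusted p under 0.05 over all genes. Lrrn4 lies at −4.05 and −5.77 and Gpm6a at 2.70 and 2.28, on opposite sides of 0.

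The wider list parted the lines as well. In media 7 of 31 were higher and 11 lower in C57epi.1, or 58.1% beside 24.4% of all genes. In supernatant 8 were higher and 9 lower, or 54.8% beside 29.9%. Krt8, a keratin of simple epithelium, was higher in C57epi.1 by 3.58 in media and 3.25 in supernatant, at 9.70, 8.75, 9.16 and 9.38 against 5.45, 5.95, 5.62 and 5.67 in media. Ptgis, prostacyclin synthase, was higher by 3.34 and 3.13. Bnc2 was higher by 3.55 in media, opposite in sign to its relative Bnc1. Lower in C57epi.1 were Nkain4 (−6.03 in media, −6.46 in supernatant), which interacts with the sodium pump, and Prg4 (−5.99 and −8.11). The retinoic acid enzyme Aldh1a2 differed by −3.65 in media and the T-box factor Tbx18 by −3.50 in supernatant. In supernatant Sulf1 was higher in C57epi.1 by 3.59. All of these named differences kept their call in 17 of 17 alternatives. Of 20 stromal genes, 5 were higher and 5 lower in C57epi.1 in media and 6 higher and 9 lower in supernatant, with Col1a2 higher (6.42) and Fbln1 lower (−5.88) in C57epi.1 in media.

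Several of the 10 genes moved with the replicate split of the media groups. Lrrn4 averaged 2.62 higher in replicates 3 and 4 than in replicates 1 and 2 of C57epi.1 media and 0.47 higher in Bm12.4 media. Gpm6a was higher there by 0.61 and 0.34, Bnc1 by 0.46 and 0.70 and Gata6 by 0.51 and 0.59. Upk1b was the other way, at −0.59 and −1.60. In supernatant the split was smaller for the first 4 genes, between −0.29 and 0.21, while Upk1b remained split at −0.88 and −1.36. The split was defined after it was seen and no test of it is given.

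**Figure D5:**
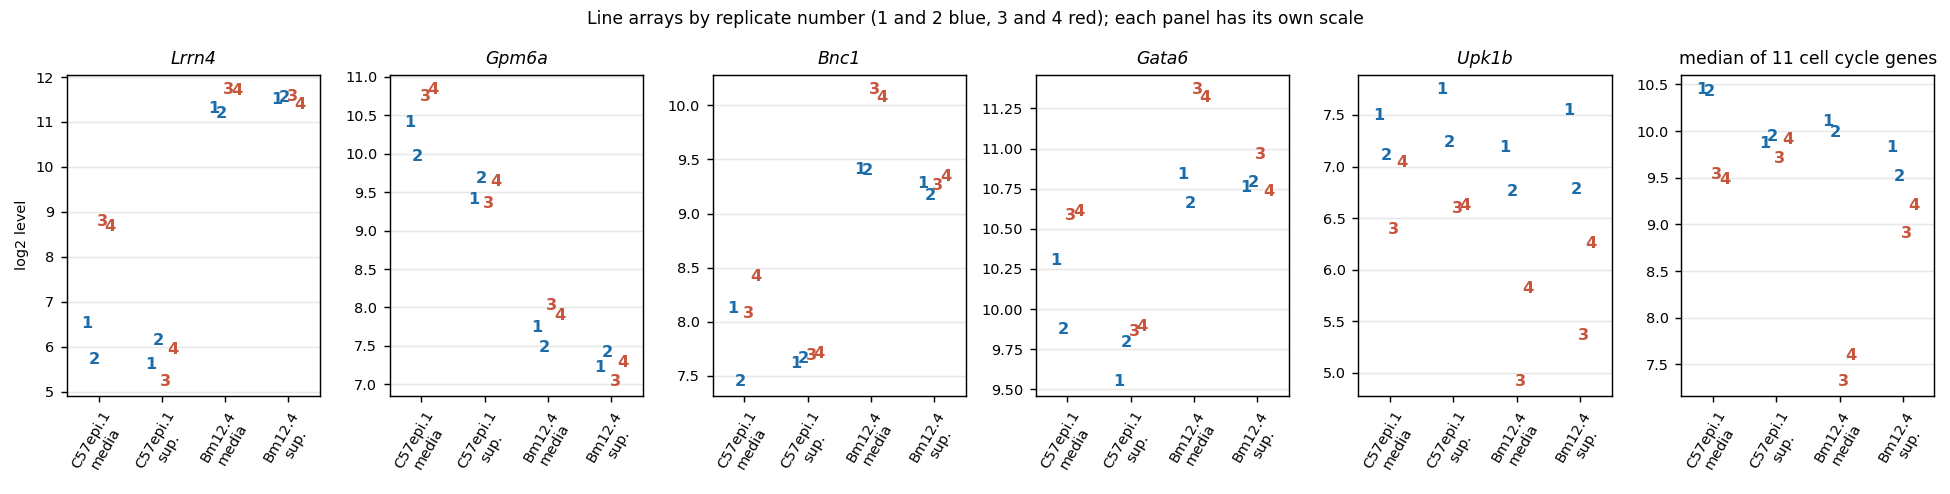
Levels of 5 mesothelial genes and the median of 11 cell cycle genes on the 16 line arrays (vertical axes, log2 level, each panel with its own scale), by group; digits are replicate numbers, 1 and 2 in blue, 3 and 4 in red. In media, replicates 3 and 4 of C57epi.1 are at 8.79 and 8.68 for Lrrn4, above 6.51 and 5.71, while their cell cycle medians are 9.54 and 9.48, below 10.45 and 10.43.

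The 5 genes whose line group means spanned at least 1 unit were set against 3201 genes with the same span, by Pearson r over the 16 line arrays. Lrrn4 was most like Prg4 (r = 0.994), Zhx1 (0.993) and Ece1 (0.992). Prg4 was at 5.04, 4.33, 7.97 and 8.27 in C57epi.1 media, 4.45, 5.36, 4.58 and 4.89 in C57epi.1 supernatant and 11.99 to 12.76 in Bm12.4 media, so it shared both the line difference and the split of the C57epi.1 media arrays. Gpm6a was most like Zim1 (0.987), Akr1c13 (0.986) and Rcn3 (0.983). Bnc1 was most like Lipa (0.986), Rassf2 (0.982) and Meis2 (0.980), and Gata6 was most like Ces2g (0.994), Tfcp2 (0.986) and Dynlt3 (0.977). Upk3b was most like Gltp (0.965), Mapre2 (0.962) and Frmd4b (0.960). The 16 arrays fall into 4 groups and share the split, so they are not 16 independent points, and each r is a description.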

How the data were processed

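Total RNA, 100 ng per sample, was labelled for Affymetrix whole-transcript arrays, per the labels' protocols. The authors' deposited values are on the log2 scale, 1 per probe set and array, and per the submitters' processing notes they were made with GCOS, Partek 6.2 and RMA. RMA corrects background and aligns the arrays' distributions, which can narrow broad shifts. GCOS and RMA have versions not given in the sources used here. Arrays have no read depth: 4 arrays per group limit the precision.

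Of 28853 probe sets, 21789 had 1 gene symbol in the platform annotation, 1621 several and 5443 none. The probe set with the highest mean was kept per symbol, giving 19938 genes. Groups and replicate numbers came from the sample titles. limma 3.58.1 (R 4.3.3, statmod 1.5.0) fitted 6 group means over 24 arrays with lmFit and eBayes (18 residual and 3.62 prior degrees of freedom). P-values were two-sided, adjusted by Benjamini-Hochberg over 19938 genes and called under 0.05. The script was tested on simulated data.

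The 10 genes, the lists and the tests were chosen with earlier results of these data known, and the cell cycle list was added after seeing the data. Gata3, Pparg, Foxa2, Klf5, Cdh1, Col1a2, Acta2, Fn1, Fst, Sox9 and Inhba are named by counts or levels and were chosen after their values were seen. All 10 genes were named, with up to 3 called genes each way of the wider mesothelial list and up to 2 of any other list described. The genes most like a member came from genes with a line span of at least 1, leaving out predicted, Riken and LOC genes. The alternatives were another summary of probe sets, a floor of 6 on the highest group mean (10762 genes), median-centred arrays, a trended robust variance, a fit of the compared groups alone, blocks, each pair of replicates (1 and 2, or 3 and 4) alone and each array left out in turn.

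Same-numbered arrays deviated together (correlation of deviations from group means) at 0.226 to 0.683 in Bm12.4 media and supernatant. There each supernatant array correlated best with its own number. Between the lines in media the correlations were 0.512 to 0.625, but C57epi.1 replicates 2 and 3 correlated best with another number. The main fit paired no arrays, and replicate numbers entered only as blocks in alternative fits. Any pairing by number comes from the data, not the labels.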

Additional observations from a re-analysis of the deposited data

Results flagged for a closer look

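Among 60 groups of 4 arrays (10 genes in 6 groups), 2 had an array far from the other 3, where chance flags about 1 in 20 groups. Both were of Msln. In macrophage supernatant 1 array read 5.11 beside 4.81, 4.82 and 4.86, where the array medians were 5 to 5.19. In Bm12.4 media 1 array read 8.39 beside 8.59, 8.61 and 8.62. Neither reading moved a call of Msln: its supernatant effects and its differences between the lines stayed uncalled without either array.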

How the results depend on the processing

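The count of called members changed with the settings in every comparison other than the effect in macrophages, where it was 0 in every alternative. For the supernatant effect in C57epi.1, 5 genes were called, 2 with the compared groups fitted alone, 2 within replicates 1 and 2, and 1 (without media replicate 4) to 5 with an array left out. In Bm12.4 the count was 1, and 0 with the groups alone, with the replicate block and within replicates 1 and 2, 2 within replicates 3 and 4, and 0 to 1 with an array left out. For the difference of the responses it was 0, and 1 with the replicate block (Upk3b, −0.59, adjusted p = 0.0371), 1 with the replicate set as a block (Lrrn4, −1.72, adjusted p = 0.0378), 1 within replicates 3 and 4, and 0 to 1 with an array left out. Between the lines in media it ran from 4 with the groups alone, where Gata6 (adjusted p = 0.0655) and Wt1 (0.107) were lost, to 7. In supernatant Calb2 was called with the replicate block (adjusted p = 0.0335) and with centred arrays (0.28, adjusted p = 0.0131). The blocks shared by all kinds of cell were added after seeing the data. Numbers pair neither C57epi.1, macrophage nor line supernatant arrays (correlations −0.143 to 0.396, and not every array correlated best with its own number), and the replicate block changed no call there other than Calb2, and left the C57epi.1 count at 5. Over all genes the Bm12.4 count of 1445 was 786 with the groups alone, and 2415 and 2874 within the replicate sets; the count of 4873 between the lines in media was 3007 with the groups alone; the count of 803 for the difference of responses ran from 438 with the groups alone to 2042 within replicates 3 and 4, and was 1263 without C57epi.1 media replicate 2 and 534 without replicate 4. No member value changed sign among those called, and 36 member values were never called, from −0.65 to 0.92, of which 23 took both signs. The cause of these moves was not tested. No detection calls were used, so low levels have no lower bound.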

Other observations

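The mean over 11 measured genes of gonadal supporting cells lay between 5.17 and 5.55 on the line arrays and between 5.17 and 5.54 on the macrophage arrays. Of the 11, 2 (18.2%, beside 6.71% of all genes) were at least 1 unit above macrophages in both lines in media. These were the activin-binding protein Fst (7.85 and 8.35 against 6.33) and the factor Sox9 (7.11 and 7.36 against 5.46). Another 8 were within 1 unit in both lines, as were 14784 of all 19938 genes. Inhba was lower in both lines (6.86 and 5.58 against 9.33). Foxl2, a granulosa cell factor, was at 6.03 in C57epi.1 media, 6.10 in Bm12.4 media and 6.07 in macrophage media, and Nr5a1, a factor of steroid-making cells, was at 5.25, 5.27 and 5.34. The mean over 10 endothelial markers lay between 4.30 and 4.74 on the line arrays and between 5.34 and 5.50 on the macrophage arrays.

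Of 11 cell cycle genes, none was called for the supernatant effect in either line (limma, adjusted p under 0.05; 0 also at an unadjusted p under 0.05), with median differences of −0.05 in C57epi.1 and 0.62 in Bm12.4. Over all genes, 19.2% were called in C57epi.1 and 7.25% in Bm12.4. The replicate sets moved in opposite directions. In Bm12.4 the median over the 11 genes went from 10.1 and 9.99 in media to 9.82 and 9.51 in supernatant in replicates 1 and 2. In replicates 3 and 4 it went from 7.32 and 7.6 to 8.9 and 9.2. A test over all 4 replicates averages these moves, so it cannot show that these genes were unaffected. In macrophages 5 of the 11 cell cycle genes fell (45.5%, where 6.31% of all genes fell), among them Ccna2 (−2.50, adjusted p = 0.00461) and Kif11 (−2.02, adjusted p = 0.0107).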
